A study of Mus musculus with 8 samples.

Results

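The mRNA levels of 10 genes that encode histone acetyltransferases other than MOF were followed here in mouse skin epithelium: Hat1, Kat2a, Kat2b, Kat5, Kat6a, Kat6b, Kat7, Ep300, Crebbp and Ncoa3. They were chosen by symbol, with earlier results of these data known but by no threshold on their values, and are 10 of the 23432 gene symbols in the count files. The question was whether any of them changed in mRNA level when MOF, the acetyltransferase encoded by Kat8, or Kansl1, a subunit of the NSL complex in which MOF works, was deleted in the epithelium. All 10 passed the filter on low counts in both experiments, with 220 to 4700 reads per gene and library.

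None of the 10 was called changed in either knockout. Over all genes tested, 9.59% were called lower and 10% higher in MOF cKO, and 0% in each direction in Kansl1 cKO. In MOF cKO, Kat7 was the nearest to a call: it was 1.42-fold higher, past the threshold on the adjusted p-value but under the 1.5-fold threshold. Crebbp was 1.36-fold higher and did not pass the adjusted p-value, and the other 8 had log2 fold changes between -0.36 and -0.03. With library size alone as the scaling, the log2 fold changes of Kat7 and Crebbp were 0.20 and 0.14. In Kansl1 cKO the log2 fold changes lay between -0.20 and 0.31. Between the 2 control groups 4 of the 10 genes were called lower at P0.5, beside 20.6% of all genes tested. Another 1 was called higher, beside 19.6%. These counts among 10 genes were not tested against those shares. The largest differences were those of a pair of paralogues, with Kat2a 2.81-fold lower and Kat2b 2.27-fold higher at P0.5 than at E16.5.

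Histone acetyltransferases move an acetyl group from acetyl-CoA to lysine side chains on histone tails, which removes a positive charge and creates a docking site for bromodomain and YEATS domain proteins. They fall into families. The GNAT family includes Hat1 and the Kat2a (GCN5) and Kat2b (PCAF) pair of the SAGA and ATAC coactivators. The MYST family includes MOF itself together with Kat5 (TIP60), Kat6a (MOZ), Kat6b (MORF) and Kat7 (HBO1). Ep300 and Crebbp encode the p300/CBP pair. Ncoa3 is a steroid receptor coactivator that binds p300 and CBP and for which acetyltransferase activity has been described. Most of these enzymes work as the catalytic part of a larger complex that sets which lysines and which genes they reach.

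The data were poly(A) RNA-seq read counts of 8 libraries, 2 in each of 4 groups. The first experiment compared epithelial cells of E16.5 control and MOF cKO (MOFfl/fl with K14Cre) back skin, sorted for the K14-H2BGFP reporter by flow cytometry. The second compared unsorted epidermis of P0.5 control and Kansl1 cKO (Kansl1fl/fl with K14Cre) newborns, which was split from the dermis with Dispase and lysed on TRIzol. The labels give the control groups no genotype beyond control, and the study describes wild-type or heterozygous littermates. The study describes the Krt14-Cre line as specific to epithelial cells, and the Kansl1 allele loses exon number 3. All mice were of mixed C57Bl/6J and CD-1 background, and the study's methods count 2 pairs of samples per experiment. Nothing in the labels states that libraries of a group came from separate animals, so the p-values measure the spread between these libraries, which may be technical.

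Libraries held 9108709 to 27561688 counts on genes, with the E16.5 libraries at 22484018 or more and the P0.5 libraries at 19774643 or fewer. Epithelial markers were present in every library. In MOF cKO 6 of the 10 were higher and 4 lower. Krt1 (log2 fold change 1.67) and Krt10 (1.12) were called higher and Krt15 (-1.26) lower. In Kansl1 cKO 3 were higher and 7 lower, and 0 were called. The targeted genes did not pass the test over the whole gene (Kat8 in MOF cKO: log2 fold change -0.14, adjusted p = 0.554; Kansl1 in Kansl1 cKO: -0.52, adjusted p = 0.242; edgeR quasi-likelihood test with Benjamini-Hochberg adjustment), and gene counts do not resolve the deleted exons, so they do not check the labels. Macrophage markers summed to 21.1 and 46.5 counts scaled to library size (CPM) in the E16.5 controls and to 111 and 140 in MOF cKO, 12 of 12 higher, of which 8 were called, and 1 of them was at 0 in E16.5 control replicate 2. Cd68 alone gave 18.1 and 41.7 CPM of the control sums, and overlapped between the groups, at 22.9 and 51.9 CPM in MOF cKO. Fibroblast markers summed to 934 and 1568 CPM against 1553 and 2169, 6 of 8 higher, and endothelial markers to 6.42 and 7.15 against 13.3 and 24.3, 5 of 5 higher. At P0.5, melanocyte markers summed to 474 and 532 CPM in controls and 1027 and 1143 in Kansl1 cKO, 7 of 7 higher, macrophage markers to 203 and 237 against 297 and 324, 10 of 12 higher, and fibroblast markers to 1122 and 1784 against 753 and 941, 7 of 8 lower. The part of these cells in the values below was not tested, and in bulk RNA fewer cells of a type and less RNA per cell cannot be told apart.

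The levels of the 10 genes were set side by side per exon length, in RPKM, which divides the CPM by exon length, on 1 scale over the 8 libraries. In the E16.5 controls Hat1 had the highest level, 25.8 ± 0.790 RPKM (mean ± SD, n = 2 here and below), followed by Kat2a at 24.1 ± 1.47, Kat7 at 15.9 ± 0.717 and Kat6a at 12.3 ± 1.35. Ep300 (9.98 ± 0.165), Kat5 (9.34 ± 0.525) and Ncoa3 (9.31 ± 0.281) lay close together, and the libraries of Kat5 and Ncoa3 overlapped. Crebbp (5.11 ± 0.318), Kat2b (2.96 ± 0.0945) and Kat6b (2.03 ± 0.147) were lowest. Neighbours in this order did not overlap other than Kat5 and Ncoa3.

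**Figure D1:**
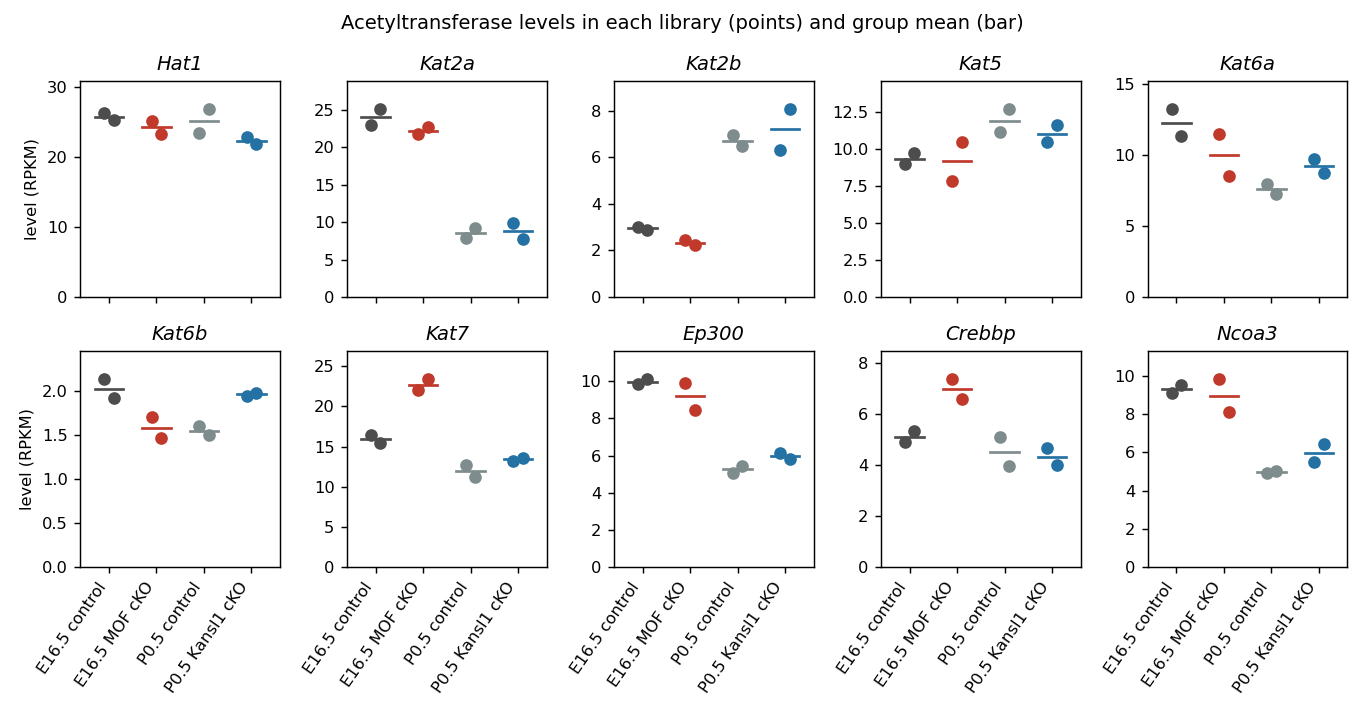
Level of each acetyltransferase in RPKM (y axis, starting at 0, with its own range per gene) in the 4 groups (x axis). Each point is 1 library and each bar the mean of 2 libraries; Kat7 and Crebbp sit higher in both MOF cKO libraries than in both E16.5 controls, while Kat2a and Kat2b differ most between the E16.5 and the P0.5 libraries.

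In MOF cKO the order changed at the top: Kat7 (22.7 ± 0.932 RPKM) overlapped both Hat1 (24.3 ± 1.37) and Kat2a (22.2 ± 0.710), while Hat1 lay above Kat2a without overlap. Kat6a, Ep300, Kat5 and Ncoa3 followed at 9.98 to 8.96 RPKM on average, each overlapping its neighbour, and Crebbp, Kat2b and Kat6b again came last in that order. In the P0.5 controls Hat1 (25.2 ± 2.39 RPKM) stood alone above Kat7 and Kat5, which overlapped at 12.0 and 11.9 RPKM, and Kat6b (1.55 ± 0.0702) was again lowest. In Kansl1 cKO the same 3 genes led, with Hat1 at 22.4 ± 0.689, Kat7 at 13.4 ± 0.257 and Kat5 at 11.05 ± 0.793 RPKM. Summed over the 10 genes the level was 117 and 117 RPKM in the E16.5 controls, 119 and 115 in MOF cKO, 86.9 and 89.6 in the P0.5 controls and 90.8 and 89.9 in Kansl1 cKO.

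The first comparison asked whether loss of MOF changed the mRNA of any other acetyltransferase. A gene was called when its adjusted p-value was at most 0.01 and its fold change over 1.5, the thresholds of the study. No member was called lower, where 9.59% of the 13956 genes tested were, and none was called higher, where 10% were. At an unadjusted p under 0.05, 1 member was lower (Kat6b; 25.1% of all genes) and 2 were higher (Kat7 and Crebbp; 23.7%). DESeq2, the study's own tool, also called 0 members, against 23.6% of its genes in either direction. The median log2 fold change of the 10 was -0.10, beside -0.02 over all genes tested.

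Among the MYST enzymes, Kat7 acetylates the histone H3 tail when bound to Brpf scaffold proteins and the H4 tail when bound to Jade scaffolds. Its gene (ENSMUSG00000038909) lies at chr11:95274259-95310246 of mm10 on the minus strand. Kat7 measured 99.2 and 92.4 CPM in the E16.5 controls and 132 and 140 CPM in MOF cKO. Both knockout libraries lay above both controls. The log2 fold change was 0.51 (SE 0.107, 95% interval 0.26 to 0.76), which gave adjusted p = 0.00917 by the quasi-likelihood test of edgeR and 0.000695 by DESeq2. Its interval reached past 1.5-fold, so a change of that size was not settled at this number of libraries. Of all genes tested, 10.8% were higher at the same adjusted p without the fold threshold. With library size alone as the scaling, the log2 fold change of Kat7 was 0.20, and the median of all genes was -0.32.

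Kat6a and Kat6b are the catalytic subunits of the MOZ and MORF complexes, which share scaffolds with HBO1. Kat6b measured 39.1 and 35.1 CPM in controls and 31.2 and 26.8 in MOF cKO, so that both knockout libraries lay lower. Its log2 fold change was -0.36 (SE 0.145), with an adjusted p of 0.0897 by edgeR's quasi-likelihood test. Kat6a measured 132 and 112 CPM in controls and 114 and 84.8 in MOF cKO, with a log2 fold change of -0.30 (SE 0.162, adjusted p = 0.184, edgeR). The ranges of Kat6a overlapped by 1 library. Kat5, the catalytic subunit of the TIP60 complex, measured 34.2 and 36.8 CPM in controls and 29.8 and 40.0 in MOF cKO. The Kat5 knockout libraries lay on either side of the controls, and its log2 fold change of -0.03 (SE 0.168, adjusted p = 0.918, edgeR) changed sign when E16.5 control replicate 2 or MOF cKO replicate 1 was left out. In the GENCODE annotation 12.1% of the exon bases of Kat5 overlap Rnaseh2c on the opposite strand, and whether the counting used strand is not given in the sources used here, so its values are less certain than those of the other members.

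The members of the p300/CBP pair had fold changes of opposite sign. Crebbp (ENSMUSG00000022521, chr16:4081328-4213997 of mm10, minus strand) measured 72.0 and 78.1 CPM in controls and 108 and 96.3 in MOF cKO, both knockout libraries higher. Its log2 fold change was 0.44 (SE 0.117, 95% interval 0.17 to 0.72), which gave adjusted p = 0.0218 by the quasi-likelihood test of edgeR and 0.00743 by DESeq2, where its fold change stayed under 1.5. With library size alone as the scaling, the log2 fold change of Crebbp was 0.14. Ep300 measured 153 and 156 CPM in controls and 153 and 131 in MOF cKO, with a log2 fold change of -0.12 (SE 0.113, adjusted p = 0.429, edgeR). Its highest knockout library lay just under the lowest control. Per exon length, Ep300 was 2.02 and 1.89 times the level of Crebbp in the control libraries and 1.35 and 1.29 times in MOF cKO.

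The GNAT enzymes and Ncoa3 had smaller absolute fold changes than Kat7 and Crebbp. Kat2a, the catalytic subunit of SAGA and ATAC, measured 87.2 and 94.5 CPM in controls and 82.0 and 85.8 in MOF cKO, with a log2 fold change of -0.11 (SE 0.111, adjusted p = 0.443, edgeR). Kat2b, which can take the place of Kat2a in these complexes, measured 16.0 and 15.2 CPM in controls and 12.8 and 11.7 in MOF cKO, with a log2 fold change of -0.35 (SE 0.178, adjusted p = 0.161, edgeR). Both knockout libraries lay below both controls for each of this pair. Hat1, which acetylates newly made histone H4 before it is placed on DNA, measured 82.9 and 78.8 CPM in controls and 78.9 and 72.9 in MOF cKO, and the groups overlapped (log2 fold change -0.09, SE 0.113, adjusted p = 0.554, edgeR). Ncoa3 measured 78.3 and 81.2 CPM in controls and 83.9 and 69.5 in MOF cKO, so that its knockout libraries spanned the controls (log2 fold change -0.06, SE 0.129, adjusted p = 0.755, edgeR). Opposite-strand exons of Sulf2 cover 1.95% of those of Ncoa3.

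Counted in CPM without a test, 4 members (Kat2a, Kat2b, Kat6b and Ep300) had both MOF cKO libraries below both controls. Of all genes tested, 37.7% did. For 2 members (Kat7 and Crebbp) both lay above, where 34.9% of all genes did. The lower list depended on the scale. In RPKM over all 8 libraries Ep300 overlapped, while Hat1 had both knockout libraries lower, at 25.2 and 23.3 against 26.4 and 25.3. The 95% interval of the log2 fold change lay wholly within 1.5-fold in either direction for 5 members, which were Kat2a, Kat5, Ep300, Hat1 and Ncoa3. For Kat2b, Kat6a and Kat6b it reached past a 1.5-fold decrease, and for Kat7 and Crebbp past a 1.5-fold increase.

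**Figure D2:**
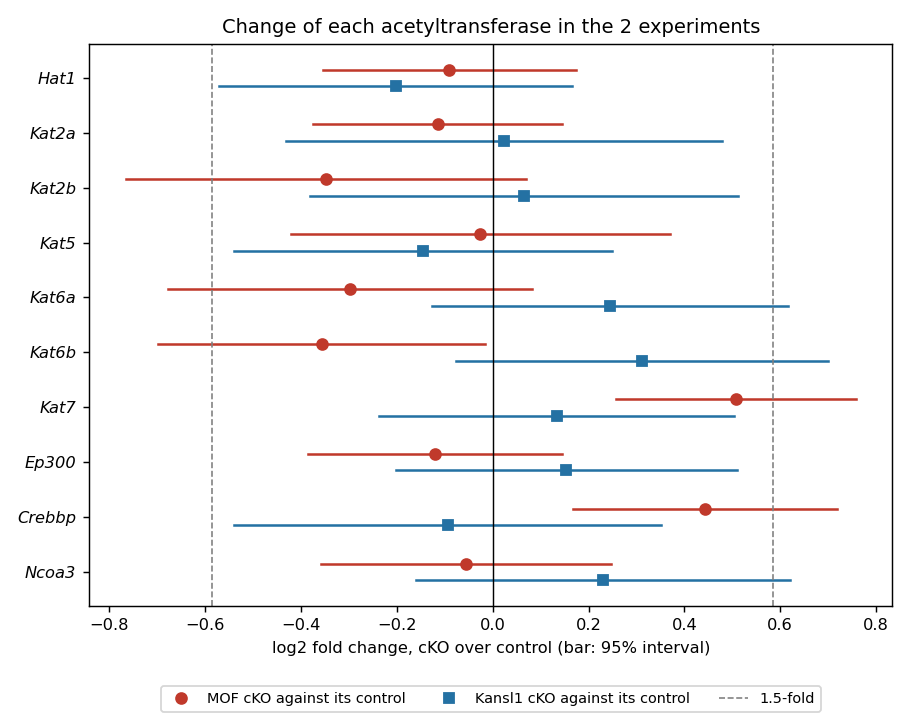
log2 fold change of each acetyltransferase (x axis) with its 95% interval from edgeR, for MOF cKO at E16.5 (circles) and Kansl1 cKO at P0.5 (squares), each against its own control. Dashed lines mark 1.5-fold; only Kat7, Crebbp and Kat6b in MOF cKO have intervals that leave out 0, and no point lies beyond a dashed line.

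The second comparison asked the same of Kansl1. No member was called lower or higher, and of the 13031 genes tested 0% were called in each direction. At an unadjusted p under 0.05, 0 members were lower (8.26% of all genes) and 0 higher (7.43%), and DESeq2 called 0 members, against 0.725% of its genes in either direction. The median log2 fold change of the 10 was 0.10, beside 0.01 over all genes tested, with 7 values above 0 and 3 below. The smallest adjusted p among the members was 0.405, that of Kat6b.

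Kat6b measured 25.2 and 23.5 CPM in the P0.5 controls and 29.8 and 30.6 in Kansl1 cKO, with both knockout libraries higher (log2 fold change 0.31, SE 0.163, 95% interval -0.08 to 0.70). Kat6a measured 68.5 and 62.1 CPM in controls and 81.0 and 73.5 in Kansl1 cKO, again both higher (0.24, SE 0.156, adjusted p = 0.495, edgeR). Kat7 measured 66.0 and 57.8 CPM in controls and 66.7 and 69.0 in Kansl1 cKO (0.13, SE 0.156, adjusted p = 0.720, edgeR). The lower knockout library of Kat7 was within 1 CPM of the higher control. Kat5 measured 36.7 and 41.4 CPM in controls and 33.5 and 37.3 in Kansl1 cKO, where the groups overlapped (-0.15, SE 0.166, adjusted p = 0.713, edgeR).

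Ep300 measured 67.8 and 72.2 CPM in controls and 79.9 and 76.0 in Kansl1 cKO, both higher (log2 fold change 0.15, SE 0.150, adjusted p = 0.660, edgeR). Crebbp overlapped between the groups at 64.4 and 49.6 CPM against 57.2 and 49.3 (-0.09, SE 0.188, adjusted p = 0.849, edgeR). Ncoa3 measured 36.3 and 36.7 CPM in controls and 39.4 and 46.3 in Kansl1 cKO (0.23, SE 0.164, adjusted p = 0.535, edgeR), and the 2 controls lay closer together than the 2 knockouts. Hat1 was the one member with both Kansl1 cKO libraries lower, at 60.0 and 57.9 CPM against 63.5 and 72.1 (-0.20, SE 0.155, adjusted p = 0.563, edgeR).

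Kat2a measured 25.8 and 29.6 CPM in controls and 31.4 and 24.9 in Kansl1 cKO, and Kat2b 31.6 and 29.4 against 28.0 and 36.0. For each of the pair the knockout libraries lay on either side of the controls, and the log2 fold changes were 0.02 (SE 0.191) for Kat2a and 0.07 (SE 0.188) for Kat2b. Over all members, both knockout libraries were higher for 5 (Kat6a, Kat6b, Kat7, Ep300 and Ncoa3), where 26% of all genes tested were, and lower for 1 (Hat1), where 22.7% were. For 7 members the 95% interval lay within 1.5-fold in either direction, and for Kat6a, Kat6b and Ncoa3 it reached past a 1.5-fold increase. No interval reached a 1.5-fold decrease.

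The 2 effects were compared directly as the MOF effect minus the Kansl1 effect over all 8 libraries. No member was called, where 2.92% of 14565 genes were, in either direction. At an unadjusted p under 0.05, 2 members were lower (Kat6a and Kat6b), beside 16.4% of all genes, and none higher. DESeq2 called 0 members, beside 10.1% of its genes. In CPM, both MOF cKO libraries of Kat6b and Ep300 lay below their controls and both Kansl1 cKO libraries above theirs. The same held for 6.66% of the 12529 genes tested in both experiments. On the RPKM scale over all 8 libraries, Ep300 overlapped between MOF cKO and its controls. The difference was -0.70 for Kat6b (SE 0.216, adjusted p = 0.0597), -0.57 for Kat6a (SE 0.236, adjusted p = 0.135), 0.50 for Crebbp (SE 0.227, adjusted p = 0.165) and 0.34 for Kat7 (SE 0.178, adjusted p = 0.223) on the log2 scale by edgeR's quasi-likelihood test. The other 6 lay between -0.44 and 0.09.

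Between the 2 control groups stage, isolation (sorted cells or whole epidermis) and sequencing instrument cannot be told apart, and their marker sums differed as well: melanocyte markers measured 19.7 and 51.2 CPM at E16.5 and 474 and 532 at P0.5, each scaled within its experiment. On the same scales the epithelial marker Krt1 measured 1549 and 1255 CPM at E16.5 and 35393 and 18084 at P0.5. Krt5 went the other way, from 19647 and 19442 CPM to 8398 and 9251. The part of these marker differences in the values below was not tested. Of the members, 4 were called lower at P0.5 (20.6% of the 14565 genes tested) and 1 higher (19.6%). The median log2 difference of the 10 was -0.40, beside -0.13 over all genes.

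Kat2a (chr11:100704746-100712465 of mm10, minus strand) and Kat2b (chr17:53566861-53672720, plus strand) differed most and in opposite directions. Kat2a measured 23.0 and 25.1 RPKM in the E16.5 controls and 7.91 and 9.15 in the P0.5 controls, a log2 difference of -1.49 (SE 0.160, adjusted p = 7.23e-05, edgeR quasi-likelihood test). Kat2b measured 3.02 and 2.89 RPKM against 6.94 and 6.50, a log2 difference of 1.18 (SE 0.176, adjusted p = 0.000436, edgeR). Kat2a was 7.62 and 8.69 times the level of Kat2b in the E16.5 controls and 8.96 and 10.2 times in MOF cKO. The pair stood near equal in the P0.5 controls, at 1.14 and 1.41 times, and in Kansl1 cKO, at 1.57 and 0.968 times. In this ratio knockout and control libraries of 1 experiment lay closer together than the 2 experiments did.

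**Figure D3:**
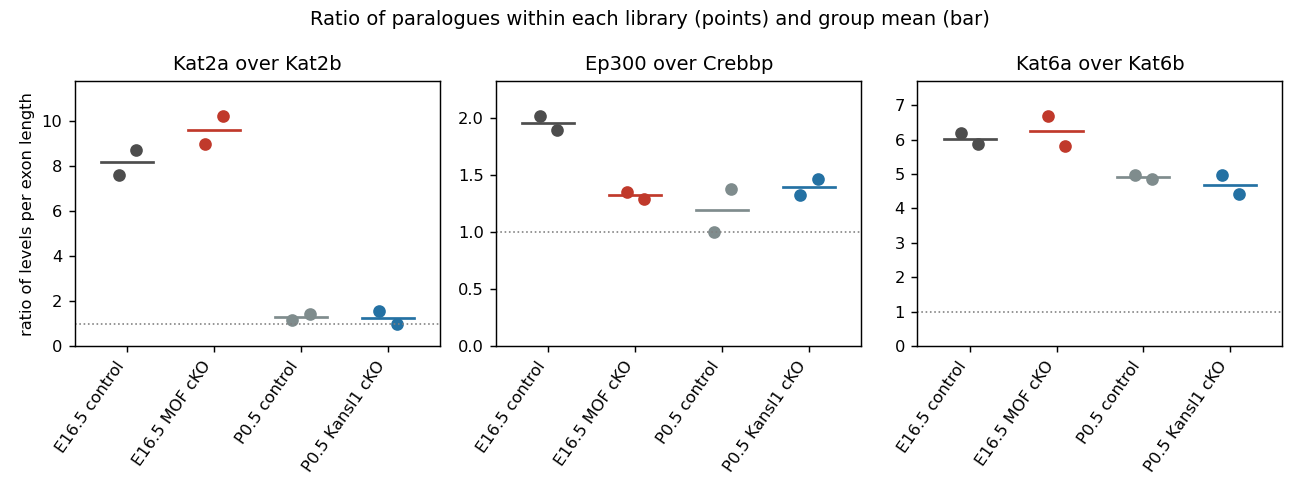
Ratio of the levels of paralogous acetyltransferases per exon length (y axis, starting at 0) in each library (points) and as the mean of 2 libraries (bars) for the 4 groups. Kat2a over Kat2b lies between 7.62 and 10.2 in the E16.5 libraries and between 0.968 and 1.57 in the P0.5 libraries; the dotted line marks equal levels.

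Ep300, Ncoa3 and Kat6a were the other members called lower at P0.5. Ep300 measured 9.86 and 10.1 RPKM in the E16.5 controls and 5.07 and 5.44 in the P0.5 controls (log2 difference -0.92, SE 0.130, adjusted p = 0.000317, edgeR). Ncoa3 measured 9.11 and 9.51 RPKM against 4.91 and 5.0 (-0.91, SE 0.149, adjusted p = 0.000764, edgeR). Kat6a measured 13.2 and 11.3 RPKM against 7.97 and 7.27 (-0.69, SE 0.168, adjusted p = 0.00683, edgeR), and DESeq2 did not call it (adjusted p = 0.0115), nor did edgeR when any 1 of 5 libraries was left out. With E16.5 control replicate 2 left out, neither Kat6a nor Ncoa3 was called and 3 members were.

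Kat7 (-0.41, adjusted p = 0.0194), Kat6b (-0.39, adjusted p = 0.0529) and Kat5 (0.36, adjusted p = 0.108) did not pass edgeR's quasi-likelihood test between the control groups. Crebbp (-0.18, SE 0.161) and Hat1 (-0.03, SE 0.130) overlapped between the groups. The share of Hat1 in the summed level of the 10 genes was 22.1% ± 0.613 in the E16.5 controls and 28.5% ± 2.08 in the P0.5 controls, while that of Kat2a was 20.6% ± 1.32 and 9.66% ± 0.782. In MOF cKO the share of Kat7 was 19.4% ± 1.28, beside 13.7% ± 0.575 in its controls.

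The sequence just before the gene start is shown for the Kat2a and Kat2b pair, whose levels differed in opposite directions between the control groups, and for Kat7, the member nearest to a call in MOF cKO. RefSeq promoter windows of the mouse build GRCm38.p6 matched 8 of the 10 genes, and the bases upstream of the annotated start are given 5′ to 3′ on the strand of the gene, with CCAAT boxes in either orientation (CCAAT or ATTGG) in capitals. The Kat2a stretch is chr11:100712468-100712717 on the minus strand, the Kat2b stretch chr17:53566721-53566860 on the plus strand and the Kat7 stretch chr11:95310247-95310496 on the minus strand.
Kat2a: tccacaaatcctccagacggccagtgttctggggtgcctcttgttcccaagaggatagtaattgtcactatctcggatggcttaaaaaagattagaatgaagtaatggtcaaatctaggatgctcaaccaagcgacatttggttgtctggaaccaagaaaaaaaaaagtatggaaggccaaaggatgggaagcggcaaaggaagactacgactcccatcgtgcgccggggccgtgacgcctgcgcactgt
Kat2b: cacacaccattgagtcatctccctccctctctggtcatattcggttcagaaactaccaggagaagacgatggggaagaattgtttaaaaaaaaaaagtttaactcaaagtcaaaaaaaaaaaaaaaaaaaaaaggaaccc
Kat7: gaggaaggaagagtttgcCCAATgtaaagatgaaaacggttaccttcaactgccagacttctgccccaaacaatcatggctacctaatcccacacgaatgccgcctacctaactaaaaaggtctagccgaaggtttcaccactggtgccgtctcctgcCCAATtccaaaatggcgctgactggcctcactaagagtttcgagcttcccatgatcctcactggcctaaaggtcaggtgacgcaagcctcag
The 250 bases of Kat7 hold 2 CCAAT boxes, and the 250 bases of Kat2a and 140 bases of Kat2b shown hold none, although the full window of Kat2b, part of which is not shown, holds 1. Their GC content was 50.8% for Kat7, 48.8% for Kat2a and 35.7% for Kat2b, the last of which holds runs of adenine.

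Each motif was searched on both strands, as written and as its reverse complement, over the full windows of 300 bases: the CCAAT box stood in 37.9% of 27025 mouse promoters, the GC box GGGCGG in 35.9%, the ETS core CGGAAG in 17.2%, GTTGCC, the core of the X-box that RFX factors bind, in 12.7%, and TATAAA in 14.2%. GCATGCGC, part of the site of the factor NRF1, stood in 2.81%. No window of the 8 matched genes held TATAAA or GCATGCGC. Kat6b held 8 GC boxes, Crebbp 2, Ep300 and Hat1 1 each, and Kat2a, Kat2b and Kat7 none, while Kat5 held 3 in the window of its second start only. CCAAT was found for Kat7 (2), Kat2b, Kat5 and Hat1 (1 each), CGGAAG for Kat5 and Hat1 (2 each) and Kat7 (1), and GTTGCC for Kat2a and Hat1 (1 each). These matches describe letters in a window and are not evidence of binding.

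The genes that work with these enzymes were described in 5 lists of complex subunits and partners, 75 genes tested in all. In MOF cKO 5 were called lower and 5 higher, 6.67% each, beside 9.59% and 10% of all genes tested, and their median log2 fold change was 0.03. DESeq2 called 6 lower and 5 higher. In Kansl1 cKO 0 of 74 were called in either direction by edgeR or DESeq2, with 3 lower and 3 higher at an unadjusted p under 0.05. Over all genes tested, 8.26% were lower and 7.43% higher at that unadjusted p, and edgeR called 0% in each direction.

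Of 28 SAGA and ATAC subunits, the partners of Kat2a and Kat2b, 2 were lower and 2 higher in MOF cKO. Supt7l, a structural subunit of SAGA, fell from 14.6 ± 0.361 to 3.73 ± 0.122 CPM (log2 fold change -1.96, SE 0.228, adjusted p = 0.0010, edgeR). Taf9b, a histone-fold subunit, fell from 3.47 ± 0.163 to 0.366 ± 0.0210 CPM (-3.23, SE 0.550, adjusted p = 0.00408, edgeR), and lost the call without E16.5 control replicate 1. Taf10, a histone-fold subunit shared with TFIID, rose from 38.9 ± 1.64 to 65.2 ± 5.02 CPM (0.74, SE 0.122, adjusted p = 0.00350, edgeR), and Sf3b5, which SAGA shares with the spliceosome, from 48.1 ± 4.01 to 78.0 ± 1.13 CPM (0.70, SE 0.119, adjusted p = 0.00411, edgeR). The calls of Taf10 and Sf3b5 were lost without MOF cKO replicate 1 and with library size alone as the scaling, and that of Sf3b5 also without E16.5 control replicate 2. The list's median was 0.09. In Kansl1 cKO, where edgeR called no gene, the log2 fold changes were -0.52 for Supt7l, -0.93 for Taf9b, -0.18 for Taf10 and -0.32 for Sf3b5.

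Of 17 subunits of the TIP60 complex of Kat5, 1 was called: Dmap1 fell from 14.5 ± 0.847 to 4.29 ± 1.60 CPM (log2 fold change -1.75, SE 0.297, adjusted p = 0.00401, edgeR), beside a list median of 0.06. In Kansl1 cKO, where edgeR called no gene, the log2 fold change of Dmap1 was -1.06 (SE 0.205, adjusted p = 0.180, edgeR). Of 9 subunits of the MOZ, MORF and HBO1 complexes, which hold Kat6a, Kat6b and Kat7, the Jade2 gene (listed as Phf15) fell from 38.7 ± 3.65 to 23.9 ± 1.74 CPM (-0.69, SE 0.145, adjusted p = 0.00896, edgeR), close to the threshold. That call was lost without E16.5 control replicate 2 and without either MOF cKO library. The list's median was -0.07, and Jade2 encodes a scaffold that can pair with Kat7.

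Of 14 partners of p300, CBP and Ncoa3, 2 were higher. Cited2, which competes with transcription factors for a domain of p300 and CBP, rose from 25.2 ± 3.12 to 50.8 ± 8.56 CPM (log2 fold change 1.01, SE 0.167, adjusted p = 0.00359, edgeR), and Prmt1, an arginine methyltransferase that acts beside these coactivators, from 253 ± 1.05 to 453 ± 58.6 CPM (0.84, SE 0.119, adjusted p = 0.00202, edgeR). Both calls were lost with library size alone as the scaling, and other losses of a call may not be listed here. The list's median was -0.17. Of 9 Hat1 partners and H3-H4 chaperones, Ipo4, an importin that carries these histones into the nucleus, rose from 74.4 ± 2.72 to 150 ± 1.81 CPM (1.02, SE 0.104, adjusted p = 0.000718, edgeR). Asf1b, a chaperone of H3-H4, fell from 37.5 ± 1.64 to 21.6 ± 3.28 CPM (-0.79, SE 0.156, adjusted p = 0.00727, edgeR) and lost the call without E16.5 control replicate 1 or MOF cKO replicate 1. The median of that list was -0.02.

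**Figure D4:**
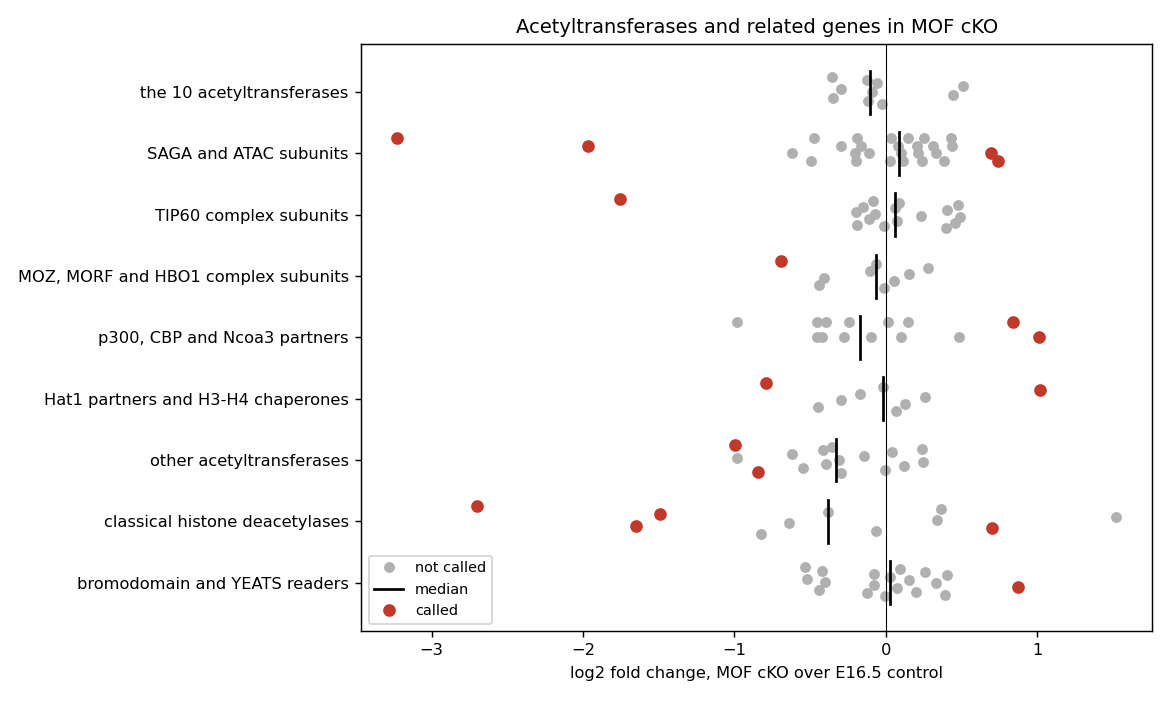
log2 fold change in MOF cKO (x axis) of the 10 acetyltransferases and of 8 lists of related genes (rows), 1 point per gene, with called genes in red and the median of each list as a black line. The acetyltransferases hold no called gene, while the SAGA and ATAC list has 2 called lower and 2 higher, and the deacetylases 3 lower and 1 higher; vertical offsets within a row only separate the points.

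Of 16 acetyltransferases outside the 10, most of them acting also or mainly on other substrates, 2 were lower in MOF cKO and none higher. The list's median was -0.33, and DESeq2 called 3 lower. The list shares Ncoa1, Ncoa2 and Kat14 (listed as Csrp2bp) with the partner lists above, and the DESeq2 call of Ncoa2 is counted in both. Over all genes tested 9.59% were called lower and 10% higher, with a median of -0.02, and DESeq2 called 11.7% of its genes lower. Taf1, the largest subunit of TFIID, fell from 74.8 ± 8.01 to 37.4 ± 4.20 CPM (log2 fold change -1.0, SE 0.140, adjusted p = 0.00192, edgeR), and Mcm3ap, which works in mRNA export, from 54.9 ± 3.01 to 30.5 ± 3.22 CPM (-0.85, SE 0.134, adjusted p = 0.00313, edgeR). In Kansl1 cKO 0 of the 16 were called, with 2 lower and 1 higher at an unadjusted p under 0.05, and DESeq2 also called 0. At that unadjusted p, 8.26% of all genes tested were lower and 7.43% higher.

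Of 11 classical histone deacetylases, the enzymes that remove acetyl groups, 3 were called lower and 1 higher in MOF cKO, with a median of -0.38 beside -0.02 over all genes. Over all genes tested 9.59% were called lower and 10% higher. DESeq2 called 5 of the 11 lower, adding Hdac1 and Hdac7, whose adjusted p-values in edgeR were just over the threshold, and 1 higher. Hdac8 fell from 14.8 ± 0.797 to 2.29 ± 0.665 CPM (log2 fold change -2.70, SE 0.289, adjusted p = 0.000784, edgeR), Hdac10, which deacetylates polyamines, from 14.0 ± 1.73 to 4.44 ± 1.38 CPM (-1.65, SE 0.285, adjusted p = 0.00429, edgeR), and Hdac11 from 32.7 ± 1.36 to 11.7 ± 0.0951 CPM (-1.49, SE 0.151, adjusted p = 0.000698, edgeR). Hdac6, a tubulin deacetylase, rose from 76.4 ± 10.4 to 124 ± 16.2 CPM (0.70, SE 0.145, adjusted p = 0.00864, edgeR), and lost the call without E16.5 control replicate 1 or MOF cKO replicate 2 and with library size alone. In Kansl1 cKO 0 of the 11 were called by edgeR or DESeq2, with 2 lower and 1 higher at an unadjusted p under 0.05. The shares of all genes tested at that unadjusted p were 8.26% lower and 7.43% higher.

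Of 19 bromodomain and YEATS proteins, which bind acetylated lysine, Brd2 was called in MOF cKO, from 511 ± 48.4 to 938 ± 128 CPM (log2 fold change 0.88, SE 0.131, adjusted p = 0.00243, edgeR), a call lost with library size alone, and the list's median was 0.03. In Kansl1 cKO 17 of these 19 genes and 9 of 9 subunits of the MOZ, MORF and HBO1 complexes had log2 fold changes above 0, with medians of 0.25 and 0.19 and 0 called by edgeR or DESeq2. At an unadjusted p under 0.05, 2 of the readers and 0 of the subunits were higher and none of either lower. Over all genes tested 7.43% were higher and 8.26% lower at that unadjusted p. The median of all genes was 0.01, and 48.6% of them lay below 0. In the other lists the counts above 0 were less one-sided. They were 15 of 28 for SAGA and ATAC, 10 of 17 for TIP60 and 8 of 13 for the p300, CBP and Ncoa3 partners. For the Hat1 partners, the other acetyltransferases and the deacetylases they were 5 of 9, 11 of 16 and 7 of 11.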

How the data were processed

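Per the labels, poly(A) RNA of the 8 libraries was made with a strand-marking NEBNext kit. The authors aligned the reads to mm10 and deposited HTSeq counts per gene symbol. The study's methods name HISAT2 as the aligner and the submitters' processing notes name TopHat2, while the annotation and strand setting are not given in the sources used here. Entries that name no gene, 21.1% to 26.0% of the counts, entered neither library sizes nor tests. Counts were filtered with filterByExpr, scaled by TMM and fitted with edgeR 4.0.16 (glmQLFit, glmQLFTest; R 4.3.3), each experiment alone, or all 8 libraries for the difference of effects and the control groups. Benjamini-Hochberg adjustment ran over all genes tested. SE and 95% intervals came from the same fit. CPM values are scaled within an experiment, and RPKM values over all 8 libraries with merged GENCODE M21 exon lengths. The alternatives, among them DESeq2 1.42.0, other scalings and filters, a replicate block and leaving out each library, are described below. The acetyltransferases and the gene lists were chosen with earlier results of these data known. All members and, of the other lists, the genes called are named, with the targeted genes.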

Additional observations from a re-analysis of the deposited data

Results flagged for a closer look

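In CPM, Kat6b and Ep300 had both MOF cKO libraries below both of their controls and both Kansl1 cKO libraries above theirs. The same held for 6.66% of the genes tested in both experiments. For Ep300 this rested on 153.05 CPM in MOF cKO replicate 1 against 153.28 in E16.5 control replicate 1. On the scale over all 8 libraries the same libraries held 9.90 and 9.86 RPKM, so that the groups overlapped. The MOF effect minus the Kansl1 effect was -0.70 on the log2 scale for Kat6b (SE 0.216, adjusted p = 0.0597, edgeR's quasi-likelihood test with Benjamini-Hochberg adjustment) and -0.31 for Ep300 (SE 0.182, adjusted p = 0.286). Neither difference passed the threshold. Over the alternatives the difference lay between -0.92 and -0.46 for Kat6b, with adjusted p from 0.0359 to 0.280, and between -0.53 and -0.06 for Ep300, with adjusted p from 0.133 to 0.889. The values without MOF cKO replicate 2 were the smallest in size for both genes. Stage, cell isolation and sequencing instrument differ between the experiments and cannot be told apart from the deleted gene.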

How the results depend on the processing

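No member was called in Kansl1 cKO or in the difference of effects under any alternative. In MOF cKO, 1 member was called lower with library size alone (Kat6b, -0.66, adjusted p = 0.00836, edgeR), a scaling that moved the median of all genes from -0.02 to -0.32, and 1 was called higher with no fold threshold (Kat7). Library size alone gave log2 fold changes of 0.20 for Kat7 and 0.14 for Crebbp, beside 0.51 and 0.44 in the main fit. Among partner genes in MOF cKO, 5 lower and 5 higher became 16 and 1 with library size alone, and the lower count was 3 in 1 fit over all 8 libraries. With 1 library left out they were 4 to 5 lower and 3 to 5 higher, lowest for the latter without MOF cKO replicate 1. In Kansl1 cKO 0 to 2 partner genes were called lower, with 2 without Kansl1 cKO replicate 2. Between the control groups 5 members were called, 3 with the replicate block, where Kat2b and Kat6a lost the call, and 3 to 5 with 1 library left out. Kat6a lost its call there under DESeq2 (-0.56), under RLE factors (-0.55) and when any 1 of 5 libraries was left out, and with library size alone Kat6b and Kat7 gained one, as the median of all genes moved from -0.13 to -0.46.

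Values that changed sign were near 0. With 1 library left out, the log2 fold change in MOF cKO ranged from -0.26 to 0.17 for Kat5 and from -0.20 to 0.0724 for Ncoa3. In Kansl1 cKO it ranged from -0.19 to 0.18 for Kat2a, from -0.30 to 0.10 for Crebbp and from -0.12 to 0.20 for Kat2b, and Kat2a was -0.0261 with upper-quartile factors, -0.0250 with library size alone and -0.0152 with the 1 CPM filter. The difference of effects ranged from -0.0213 to 0.29 for Kat5, from -0.0322 to 0.27 for Hat1 and from -0.34 to 0.0293 for Kat2a, and was -0.12 for Kat5 and -0.14 for Hat1 with library size alone. Between the control groups Hat1 ranged from -0.14 to 0.0751, and was 0.0931 with DESeq2, 0.10 with RLE factors and 0.0604 with the filter on low counts dropped. Of the other genes named in MOF cKO, Supt7l, Dmap1, Ipo4, Mcm3ap, Taf1, Hdac8, Hdac10 and Hdac11 kept their calls under every alternative run. The rest lost theirs under 1 or more, and not every such loss is listed above. The cause of these changes was not tested.

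The replicate numbers are not said to mark litters. Deviations of same-numbered libraries correlated at 0.27 in the MOF experiment and -0.30 in the Kansl1 experiment across genes. The replicate block moved the count of genes called in MOF cKO from 1338 lower and 1395 higher to 2263 and 1903, and in Kansl1 cKO it left 0 and 0. With the Kansl1 cKO numbers crossed, chosen after seeing the data, 1 gene was called lower and 0 higher. With 2 libraries a group, and 220 to 1117 counts per member in the P0.5 controls, the intervals of 5 members in MOF cKO and 3 in Kansl1 cKO reached past 1.5-fold, so changes of that size cannot be settled for them.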
